A study of Mus musculus with 12 samples.

Results

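Livers of mice that differed from the baseline group in both diet and genotype were compared with that baseline: 3 RNA-seq libraries of HF knockout livers against 3 of LF floxed livers, chosen by their titles and making up 6 of the 12 libraries of the series. HF knockout animals were labelled with a knockout of thrombospondin 1 (TSP1, gene Thbs1) specific to macrophages and received the HF diet, and LF floxed animals carried the floxed Thbs1 allele, were labelled WT and received the LF diet. Both groups were of the mixed strain 129/B6, were 10 months old and had been on their diet for 8 months. The labels name neither the promoter that drove deletion in macrophages nor the composition of either diet, and whole liver holds many cell types that keep Thbs1. Diet and genotype differ together in this comparison, so their parts in any difference cannot be told apart from it alone; levels in HF floxed and LF knockout livers, the groups of 3 libraries that differ from the baseline in 1 factor, are given where they help.

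TSP1 is a large secreted glycoprotein that binds matrix proteins, the cell surface receptors CD36 and CD47 and latent TGF-beta, which it can activate. In the liver, a high-fat diet is known to lead to storage of triglyceride in hepatocytes, to recruitment of monocytes beside the resident macrophages (Kupffer cells), and with time to matrix deposition. Hepatocytes answer inflammatory cytokines with the acute phase response, a change in the set of plasma proteins they secrete, while synthesis of fatty acids from sugar follows insulin and the transcription factors SREBP-1c and ChREBP.

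The levels below are FPKM, fragment numbers scaled to transcript length and library size. Log2 fold changes of HF knockout over LF floxed, with their standard errors (SE), come from edgeR fitted to estimated counts of 12587 genes. Named genes took 13336969 to 15080378 estimated counts in the 6 libraries. The labels number the libraries of a group without saying that they came from separate animals. The p-values therefore reflect variation among libraries, part of which may be technical. The most abundant genes were those of hepatocytes: Alb, the gene of serum albumin, reached 20592.94, 72054.23 and 34960.99 FPKM in HF knockout livers and 31440.6, 40062.97 and 43610.48 FPKM in LF floxed livers.

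The HF knockout libraries varied more among themselves than any other group did. Their biological coefficient of variation was 52.8%, against 28.2% in LF floxed livers. Replicate 2 of the HF knockout group stood apart from all other libraries: its Pearson correlations of log2 CPM (counts scaled to library size) with them ran between 0.826 and 0.89, and the other 11 libraries correlated with each other at 0.917 to 0.986. Several genes chosen after their values were seen show how it differed. Glul, the glutamine synthetase of hepatocytes around the central vein, was at 445.57, 10.97 and 456.28 FPKM in the HF knockout libraries and at 350.73, 344.88 and 252.97 FPKM in LF floxed livers. Cyp2e1, another gene of pericentral hepatocytes, was at 4867.5, 27.51 and 3246.21 FPKM in the HF knockout libraries and at 1677.24, 3671.41 and 2178.55 FPKM in LF floxed livers. In both genes replicate 2 lay far below all 5 other libraries. Gpc3, a heparan sulfate proteoglycan of fetal liver and liver tumours, was listed at 0, 101.49 and 0.06 FPKM in the HF knockout libraries and lay between 0.08 and 0.58 FPKM in LF floxed livers. Afp, the fetal serum protein alpha-fetoprotein, was at 0.09, 29.98 and 0.36 FPKM in the HF knockout libraries and between 0.09 and 0.24 FPKM in LF floxed livers. Replicate 3 differed in another way, with the neutrophil granule gene S100a8 at 176.38 FPKM, against 2.55 and 0.93 FPKM in replicates 1 and 2 and 0.55 to 4.93 FPKM in LF floxed livers. Many medians of gene lists below moved when 1 library was left out. Those that moved by over 1.5 times or changed sign are followed by values without that library or by the range of such values.

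**Figure D1:**
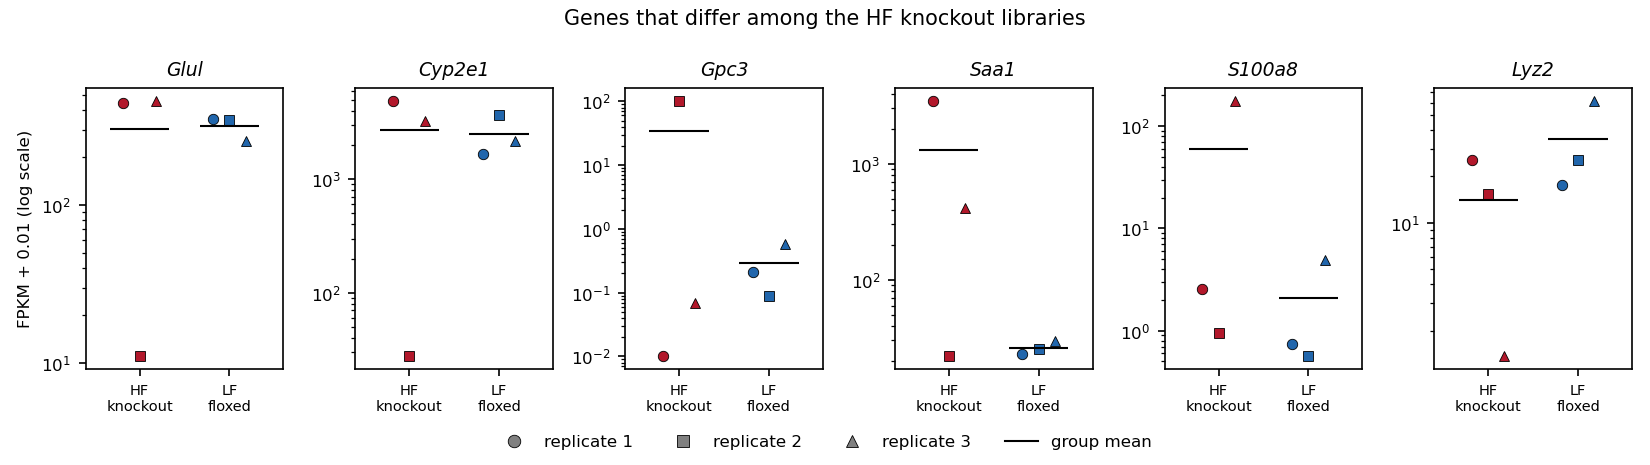
FPKM + 0.01 on a log scale of 6 genes in the HF knockout (red) and LF floxed (blue) libraries, with a symbol for each replicate and a line at the group mean. HF knockout replicate 2 is low for Glul and Cyp2e1 and high for Gpc3, replicate 1 is highest for Saa1, and replicate 3 is high for S100a8 and low for Lyz2.

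Across the whole transcriptome 2 genes passed a false discovery rate of 5%, and both were higher in HF knockout livers: Lcn2, which encodes lipocalin 2, a secreted siderophore-binding protein of the acute phase response, and Cyp2b9, a cytochrome P450 with higher expression in female than in male mouse liver. They were 0.0159% of the 12587 genes tested. No gene passed as lower (0.0%) in edgeR, although 610 genes (4.85%) were lower at an unadjusted p under 0.05 and DESeq2 called 70 lower; 1164 genes (9.25%) were higher at that unadjusted threshold and DESeq2 called 243 higher. In FPKM, all 3 HF knockout libraries lay above all 3 LF floxed libraries for 998 genes (7.93%) and below them for 443 (3.52%). The median log2 fold change of all tested genes was 0.02, with 51.9% above 0 and 48.1% below.

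The deleted gene, Thbs1, was at 0.16, 1.42 and 1.63 FPKM in HF knockout livers, against 0.11, 0.06 and 0.07 FPKM in LF floxed livers. It was thus not lower in the livers labelled as knockout: all 3 lay above the LF floxed libraries, replicate 1 only just. The log2 fold change was 3.59 (SE 0.85, edgeR adjusted p = 0.249), and the exact two-sided permutation p on log2(FPKM + 1) was 0.1, the smallest that 3 against 3 libraries allow. Without HF knockout replicate 1, Thbs1 passed as higher (log2 fold change 4.09, edgeR adjusted p = 0.0466). It passed in no fit with another compared library left out. HF floxed livers had 0.75, 0.75 and 0.31 FPKM and LF knockout livers 0.08, 0.55 and 0.55 FPKM. Whole-liver RNA does not report the deletion in macrophages alone, and in bulk tissue a change in the number of cells of a type and a change in RNA per cell cannot be told apart. Smpdl3b, a phosphodiesterase related to acid sphingomyelinase that restrains inflammatory signalling in macrophages, was at 1.26, 2.12 and 1.64 FPKM in HF knockout livers and at 0.03, 0.13 and 0.88 FPKM in LF floxed livers. The groups did not overlap, with a log2 fold change of 2.11 (SE 0.81, edgeR adjusted p = 0.303, exact permutation p = 0.1). HF floxed livers lay between 0.13 and 0.52 FPKM and LF knockout livers between 0.13 and 0.30 FPKM for Smpdl3b, below all 3 HF knockout libraries. Lyz2, the lysozyme of macrophages and neutrophils whose locus is often used to drive Cre recombinase in myeloid cells, was at 25.47, 15.30 and 1.35 FPKM in HF knockout livers and at 17.64, 25.36 and 61.65 FPKM in LF floxed livers. The groups overlapped (log2 fold change -1.33, SE 0.80, edgeR adjusted p = 0.446, exact permutation p = 0.3), with HF knockout replicate 3 far below the rest.

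Of the other genes of the TSP1 and TGF-beta pathway, Tgfb1, the ligand TGF-beta 1, was at 7.09, 10.20 and 15.19 FPKM in HF knockout livers and at 2.08, 3.77 and 6.36 FPKM in LF floxed livers, with no overlap. Its log2 fold change was 1.24 (SE 0.33, edgeR adjusted p = 0.249). Of 16 tested members of the 18 listed thrombospondins, receptors and TGF-beta genes, 15 were higher and 1 was lower, 3 lay above without overlap (against 7.93% of all genes), and none passed the test. Their median log2 fold change was 0.66, and it was 1.01 without HF knockout replicate 1, 0.35 without replicate 2 and 0.33 without replicate 3. Among receptors of TSP1, Cd47 reached 13.04, 18.20 and 15.65 FPKM in HF knockout livers and 10.74, 11.33 and 13.33 FPKM in LF floxed livers, and overlapped. The sphingomyelin and ceramide list, to which Smpdl3b belongs, held 13 higher and 8 lower of 21 tested members of 22, with a median of 0.11, or 0.25 without HF knockout replicate 1, and no call.

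The DNA just before and after the transcription starts of Lcn2, Cyp2b9, the related Cyp2b13, Hamp and Mt2 is printed because these genes carry the results that follow. Each stretch holds 300 bases, of which 250 precede the start and 50 follow it, read 5′ to 3′ on the strand of the gene from RefSeq (GRCm38.p6): chr2:32387690-32387989, minus strand, for Lcn2; chr7:26173159-26173458, plus strand, for Cyp2b9; chr7:26061245-26061544, plus strand, for Cyp2b13; chr7:30943980-30944279, minus strand, for Hamp; and chr8:94172368-94172667, plus strand, for Mt2. Capitals mark a C/EBP motif in Lcn2, the bases at which Cyp2b9 and Cyp2b13 differ, a STAT motif in Hamp and metal response elements in Mt2.
Lcn2: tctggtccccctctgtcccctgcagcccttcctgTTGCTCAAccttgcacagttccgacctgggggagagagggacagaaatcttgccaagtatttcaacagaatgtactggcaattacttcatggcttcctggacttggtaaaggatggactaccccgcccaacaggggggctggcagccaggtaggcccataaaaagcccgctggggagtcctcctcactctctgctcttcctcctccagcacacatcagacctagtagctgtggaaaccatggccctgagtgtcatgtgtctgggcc
Cyp2b9: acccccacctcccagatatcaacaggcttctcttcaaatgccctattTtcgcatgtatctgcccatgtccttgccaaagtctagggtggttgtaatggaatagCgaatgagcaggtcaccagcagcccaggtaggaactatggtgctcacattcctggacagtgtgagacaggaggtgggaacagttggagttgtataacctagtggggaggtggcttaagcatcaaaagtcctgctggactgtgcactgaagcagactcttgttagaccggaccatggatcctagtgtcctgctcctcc
Cyp2b13: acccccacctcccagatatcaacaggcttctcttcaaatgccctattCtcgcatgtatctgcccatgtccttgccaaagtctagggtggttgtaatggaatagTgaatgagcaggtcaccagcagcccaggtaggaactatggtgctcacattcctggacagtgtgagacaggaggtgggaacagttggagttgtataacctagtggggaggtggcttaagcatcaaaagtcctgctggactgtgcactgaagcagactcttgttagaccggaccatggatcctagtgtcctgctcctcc
Hamp: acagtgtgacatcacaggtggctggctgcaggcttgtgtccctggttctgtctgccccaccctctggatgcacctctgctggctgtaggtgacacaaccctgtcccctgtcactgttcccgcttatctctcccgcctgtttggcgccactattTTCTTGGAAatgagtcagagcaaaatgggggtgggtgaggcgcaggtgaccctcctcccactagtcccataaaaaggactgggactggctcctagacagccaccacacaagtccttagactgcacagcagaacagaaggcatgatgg
Mt2: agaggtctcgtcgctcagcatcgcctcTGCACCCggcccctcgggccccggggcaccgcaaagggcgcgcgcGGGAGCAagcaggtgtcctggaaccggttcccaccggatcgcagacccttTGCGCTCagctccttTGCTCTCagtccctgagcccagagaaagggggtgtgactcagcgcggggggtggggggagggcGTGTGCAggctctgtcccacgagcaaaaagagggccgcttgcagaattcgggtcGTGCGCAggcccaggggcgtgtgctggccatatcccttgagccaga

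Motifs were searched on both strands as TTGCNNAA for C/EBP, TTCNNNGAA for STAT and TGCNCNC for the metal response element, and matches were allowed to overlap each other. Lcn2 held 1 C/EBP match, as did 10.8% of all 27025 mouse promoters of this length, and Hamp held 1 STAT match, as did 8.47% of them. Mt2 held 6 metal response element matches, a number reached by 56 promoters (0.207%), while 50.4% held at least 1. The stretches of Cyp2b9 and Cyp2b13 were identical at 298 of 300 bases (99.3%). These matches describe letters in the windows and do not show that a factor binds there.

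Lcn2 was at 797.17, 707.42 and 293.05 FPKM in HF knockout livers, against 1.63, 6.89 and 4.37 FPKM in LF floxed livers. Every HF knockout library was more than an order of magnitude above every LF floxed library. The log2 fold change was 7.05 (SE 0.80, edgeR adjusted p = 0.0168), a 133-fold rise. The groups that differ from the baseline in 1 factor lay between: HF floxed livers had 159.44, 151.67 and 45.80 FPKM, and LF knockout livers had 10.59, 37.24 and 37.88 FPKM. On the log2 scale, HF floxed livers were 4.48 above LF floxed livers (SE 0.71, edgeR adjusted p = 0.122) and LF knockout livers 2.54 above them (SE 0.66, edgeR adjusted p = 0.841), and neither difference passed the test. The interaction of diet and genotype was 0.03 (SE 0.96, edgeR adjusted p = 0.995) for Lcn2. These contrasts share libraries with the main one and are set beside it for reading only.

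Cyp2b9 was at 45.66, 115.79 and 71.18 FPKM in HF knockout livers, against 0.71, 0.43 and 0.35 FPKM in LF floxed livers, with no overlap. The log2 fold change was 7.29 (SE 0.86, edgeR adjusted p = 0.0168), a 157-fold rise. Unlike Lcn2, it was already at 44.31, 46.19 and 36.00 FPKM in HF floxed livers, and LF knockout livers ranged widely, with 8.47, 96.87 and 94.50 FPKM. The LF knockout livers were 6.98 above LF floxed livers on the log2 scale, a difference that passed the test (SE 0.85, edgeR adjusted p = 0.0362), and HF floxed livers were 6.18 above them (SE 0.82, edgeR adjusted p = 0.056). The interaction for Cyp2b9 was -5.87 (SE 1.00, edgeR adjusted p = 0.241). Cyp2b13, its close relative, was at 4.75, 12.25 and 10.84 FPKM in HF knockout livers and was listed at 0 in all 3 LF floxed livers. Its estimated counts summed to 805 in HF knockout livers and 0 in LF floxed livers. With 3 counts taken as the floor for the LF floxed group, Cyp2b13 was at least 242-fold higher (edgeR adjusted p = 0.249). Transcripts of Cyp2b9 and Cyp2b13 share 10.8% of their 50-base windows, so reads in those windows can be split between them.

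Both calls depended on which libraries entered the fit. Without LF floxed replicate 1 the edgeR adjusted p was 0.192 for both genes, without LF floxed replicate 2 it was 0.148 for Lcn2 and 0.153 for Cyp2b9, and without LF floxed replicate 3 it was 0.0859 and 0.0936 in that order, while Slamf9 alone passed. With the 6 compared libraries alone Lcn2 did not pass (edgeR adjusted p = 0.136), and Cyp2b9 did not pass in limma voom with sample weights (adjusted p = 0.109) or in limma on log2(FPKM + 1) without a filter (adjusted p = 0.102). Both stayed called without any 1 HF knockout library, and the number of calls was then 108 without replicate 1, 3 without replicate 2 (Saa1 joined them) and 4 without replicate 3 (Ces1d and Sgk1 joined them). With HF knockout replicate 1 left out, 90 genes passed as higher and 18 as lower, of 12851 tested. They included 22 of the 111 genes picked by rule, among them Sema4d, Hbb-bt, Tmem176a and Paxx. Most of those 111 were picked for a small p in the same libraries, so this overlap adds no separate evidence. Of the 111, 2 passed without HF knockout replicate 2 (Lcn2 and Cyp2b9) and 3 without HF knockout replicate 3 (Sgk1 as well). With any 1 LF floxed library left out, 0 of the 111 passed. Among the libraries that enter only the estimate of spread, HF floxed replicate 1 was much closer to replicate 2 than other replicates were, and so was LF knockout replicate 2 to replicate 3. With each such pair averaged to 1 library the edgeR adjusted p of both genes was 0.112. Their log2 fold changes stayed between 6.26 and 7.55 for Lcn2, and between 5.62 and 7.56 for Cyp2b9, over all alternatives tried.

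**Figure D2:**
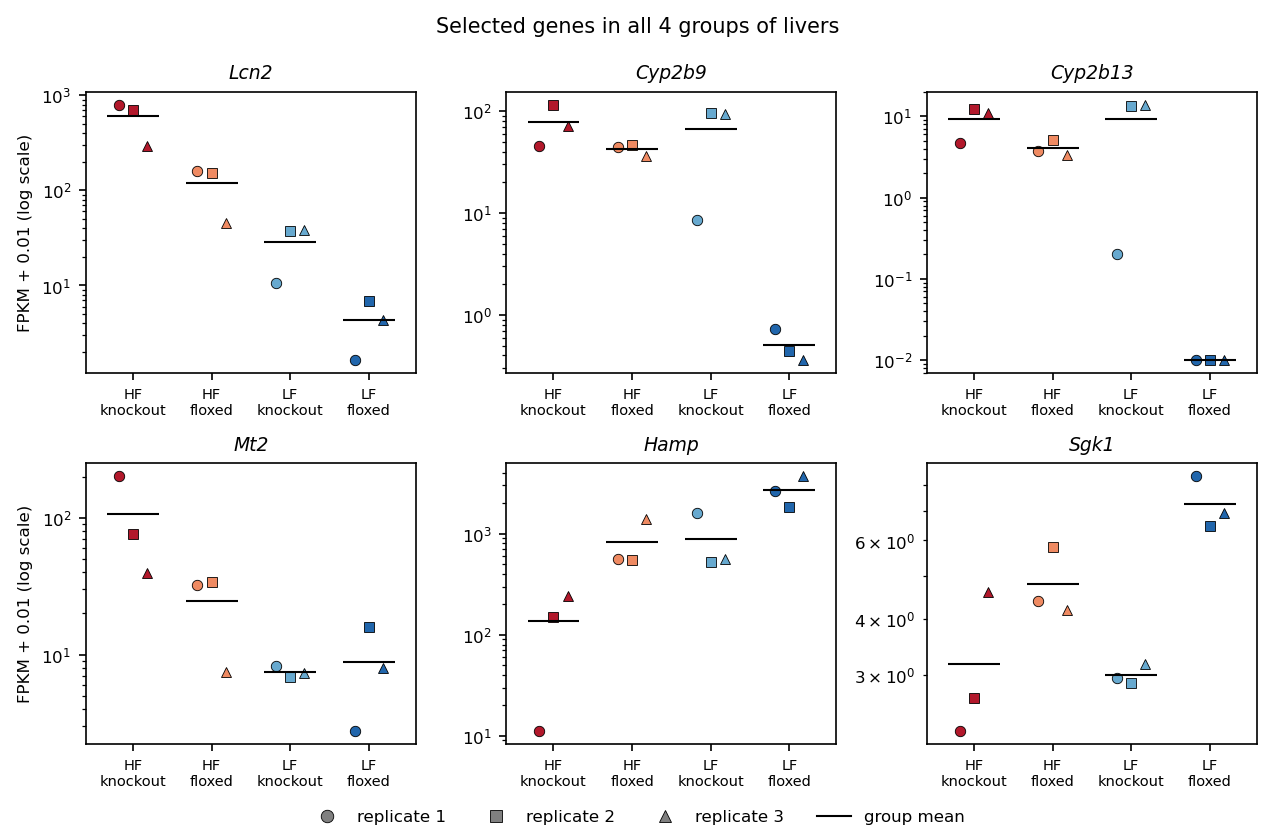
FPKM + 0.01 on a log scale of 6 genes in the 3 libraries of each group, with a symbol for each replicate and a line at the group mean; values listed as 0 are drawn at 0.01. Lcn2 is highest in HF knockout and lowest in LF floxed livers with the other groups between, Cyp2b9 and Cyp2b13 are lowest in LF floxed livers, and Hamp is lowest in HF knockout livers.

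Genes of the acute phase response were for the most part higher in HF knockout livers. Of 24 tested members, 22 were higher and 2 lower, with a median log2 fold change of 1.28; 11 lay above the LF floxed libraries without overlap (against 7.93% of all genes) and 15 were higher at an unadjusted p under 0.05 (against 9.25%), but Lcn2 alone passed the test (against 0.0159%). Steap4, a metalloreductase induced by inflammation, was at 79.00, 83.72 and 65.83 FPKM in HF knockout livers, against 15.12, 30.26 and 20.66 FPKM in LF floxed livers. For Steap4 the log2 fold change was 1.67 (SE 0.28, edgeR adjusted p = 0.14). Il1rn, the antagonist of the interleukin 1 receptor, was at 2.57, 12.28 and 4.79 FPKM in HF knockout livers, against 0.24, 0.60 and 1.06 FPKM in LF floxed livers. For Il1rn the log2 fold change was 3.17 (SE 0.68, edgeR adjusted p = 0.249). Both genes separated the groups in every library, and both passed without HF knockout replicate 1 (edgeR adjusted p = 0.0493 each).

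The serum amyloid A genes, the classic strongly induced acute phase genes of mouse liver, did not follow Lcn2 in all libraries. Saa1 was at 3482.61, 21.83 and 419.14 FPKM in HF knockout livers, against 23.05, 25.26 and 29.38 FPKM in LF floxed livers, so that replicate 2 lay below the LF floxed range while replicates 1 and 3 lay far above it. Its log2 fold change was 5.72 (SE 1.37, edgeR adjusted p = 0.249), and without replicate 2 it passed the test. Saa2 showed the same order of libraries, with 1825.93, 7.41 and 169.62 FPKM in HF knockout livers and 6.69 to 12.81 FPKM in LF floxed livers. Hp, haptoglobin, which binds free haemoglobin, was higher in all 3, with 6990.09, 3125.24 and 3680.35 FPKM in HF knockout livers and 1149.73, 1356.77 and 1454.01 FPKM in LF floxed livers (log2 fold change 1.73, SE 0.38, edgeR adjusted p = 0.249). Saa1, Saa2 and Hp were singled out after their values were seen. The list median was 1.61 without replicate 2 and 0.89 without replicate 1, in which the summed level of the list reached 36766 FPKM, against 19406 and 17658 FPKM in the other HF knockout livers and 11689 to 15437 FPKM in LF floxed livers.

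Hamp, which encodes the iron hormone hepcidin and is itself induced by interleukin 6, was lower, unlike most of the acute phase list it belongs to. It was at 11.04, 150.80 and 244.22 FPKM in HF knockout livers, against 2617.97, 1825.84 and 3719.36 FPKM in LF floxed livers, so every HF knockout library lay well under every LF floxed one. The log2 fold change of Hamp was -4.60 (SE 0.93, edgeR adjusted p = 0.249), and it passed as lower without HF knockout replicate 1 (log2 fold change -4.05, edgeR adjusted p = 0.049). HF floxed livers had 562.34, 554.12 and 1384.55 FPKM and LF knockout livers 1586.64, 529.89 and 557.43 FPKM, all between the compared groups. Hamp and its neighbour Hamp2 share 16.6% of the 50-base windows of the Hamp transcript, and Hamp2 was at 8.67, 7.37 and 87.01 FPKM in HF knockout livers and at 55.52, 325.94 and 158.25 FPKM in LF floxed livers, which overlap.

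The metallothioneins, small cysteine-rich proteins that bind zinc and copper and are induced by metals, glucocorticoids and cytokines, were higher in HF knockout livers; they were chosen after their values were seen. Mt2 was at 203.88, 75.96 and 39.93 FPKM in HF knockout livers and at 2.72, 15.84 and 7.96 FPKM in LF floxed livers. Mt1 was at 376.96, 145.49 and 91.71 FPKM in HF knockout livers and at 7.14, 51.57 and 39.96 FPKM in LF floxed livers. Neither gene overlapped between groups, and replicate 1 was highest among HF knockout livers for both. The log2 fold changes were 3.59 for Mt2 (SE 0.78, edgeR adjusted p = 0.249) and 2.63 for Mt1 (SE 0.81, edgeR adjusted p = 0.255). LF knockout livers, at 6.89 to 8.22 FPKM of Mt2, lay within the LF floxed range. The metal handling list as a whole was mixed, with 5 higher and 6 lower of 11 members and a median of -0.08 that lay between -0.35 (without HF knockout replicate 3) and 0.21 (without HF knockout replicate 2) when 1 library was left out.

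Interferon-responsive genes were higher in HF knockout livers for all 26 tested members, against 51.9% of all genes. The shifts were small, with a median log2 fold change of 0.90, and 14 of the 26 lay above the LF floxed libraries without overlap, where 7.93% of all genes did. None passed the test. Isg15, a ubiquitin-like modifier, was at 15.99, 17.04 and 14.55 FPKM in HF knockout livers and at 7.14, 5.85 and 5.50 FPKM in LF floxed livers. For Isg15 the log2 fold change was 1.23 (SE 0.32, edgeR adjusted p = 0.249). With 1 library left out, the median stayed between 0.72 and 0.99. Without HF knockout replicate 2 all 26 members were still higher.

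Inflammatory genes were higher for 16 of 17 tested members of 19, with a median of 1.35, and 6 lay above without overlap (against 7.93% of all genes). Il6 and Cxcl2 were too low to be tested. Cxcl1, a chemokine that attracts neutrophils, was at 26.96, 15.71 and 12.02 FPKM in HF knockout livers and at 2.38, 1.68 and 4.77 FPKM in LF floxed livers. For Cxcl1 the log2 fold change was 2.56 (SE 0.46, edgeR adjusted p = 0.208). HF floxed livers were 0.17 above LF floxed livers on the log2 scale for Cxcl1 (SE 0.46, edgeR adjusted p = 0.905). LF knockout livers, at 5.12, 7.31 and 10.20 FPKM of Cxcl1, all lay above the LF floxed libraries. On the log2 scale they were 1.17 above LF floxed livers (SE 0.45, edgeR adjusted p = 0.929). Cxcl10, a chemokine for T cells, was at 2.79, 4.66 and 6.97 FPKM in HF knockout livers and at 1.39, 1.09 and 1.89 FPKM in LF floxed livers. For Cxcl10 the log2 fold change was 1.53 (SE 0.43, edgeR adjusted p = 0.249). Icam1, an adhesion molecule of inflamed endothelium and hepatocytes, was at 9.95, 17.69 and 8.58 FPKM in HF knockout livers and at 3.68, 3.03 and 6.15 FPKM in LF floxed livers. For Icam1 the log2 fold change was 1.35 (SE 0.39, edgeR adjusted p = 0.249). These 3 genes separated the groups, and no member of the list passed the test. All 8 tested members of 10 MHC class II genes were higher, with a median of 0.74, or 0.48 without LF floxed replicate 1.

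Markers of immune cells were higher as well. Of 15 Kupffer cell markers 14 were higher in HF knockout livers, with a median of 1.04 that was 0.59 without HF knockout replicate 3 and 1.58 without LF floxed replicate 3. None was free of overlap between the groups, whereas 7.93% of all genes lay above without overlap. Their summed level was 512, 206 and 772 FPKM in HF knockout livers and 148, 172 and 430 FPKM in LF floxed livers. Of 15 markers of monocytes and lipid-associated macrophages 14 were higher, with a median of 1.81, or 0.93 without HF knockout replicate 3. Their summed level was 87.2, 1122 and 194 FPKM in HF knockout livers and 52.0, 241 and 260 FPKM in LF floxed livers, so HF knockout replicates 1 and 3 lay below 2 of the 3 LF floxed libraries. In that list Cx3cr1, a chemokine receptor of monocytes, was at 1.08, 1.19 and 2.32 FPKM in HF knockout livers and at 0.15, 0.05 and 0.49 FPKM in LF floxed livers. For Cx3cr1 the log2 fold change was 2.54 (SE 0.68, edgeR adjusted p = 0.249). Spp1, osteopontin, was at 23.54, 743.15 and 46.19 FPKM in HF knockout livers and at 17.67, 21.45 and 34.27 FPKM in LF floxed livers, and it set most of the summed level of that list in replicate 2. Outside these lists, Mpeg1, the pore-forming protein perforin-2 of macrophages, was among the genes of smallest p. It was at 32.77, 93.56 and 56.62 FPKM in HF knockout livers and at 8.75, 9.49 and 15.95 FPKM in LF floxed livers. For Mpeg1 the log2 fold change was 2.24 (SE 0.40, edgeR adjusted p = 0.208). Without HF knockout replicate 1, Mpeg1 passed (edgeR adjusted p = 0.0466). The part of cell number in these values was not tested.

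Neutrophil markers were high in 1 library. Their summed level was 14.1, 5.15 and 547 FPKM in HF knockout livers, against 3.18, 2.19 and 12.1 FPKM in LF floxed livers, and the median log2 fold change of the 6 tested members of 13 was 4.55, or 0.71 without HF knockout replicate 3. Camp, a granule gene too low to be tested, was at 0.67, 0 and 37.66 FPKM in HF knockout livers and was listed at 0 in all LF floxed livers. Lcn2, which neutrophils also express, was lowest in that library among the HF knockout livers and stayed called without it (log2 fold change 7.42, edgeR adjusted p = 0.0153). The cell type that expressed Lcn2 was not tested. T, NK and B cell markers were higher for 10 of 11 tested members of 16, with a median of 0.88 (0.53 without LF floxed replicate 1 and 1.49 without LF floxed replicate 3) and summed levels of 8.91, 12.2 and 10.4 FPKM in HF knockout livers and 3.46, 4.75 and 7.16 FPKM in LF floxed livers, which do not overlap. Erythroid markers were higher for 4 and lower for 1 of 5 tested members of 9, with a median of 1.11. Their summed levels, mostly Hba-a1 and Hba-a2, were 954, 1104 and 1728 FPKM in HF knockout livers and 603, 573 and 579 FPKM in LF floxed livers. The lower member was Alas2, with means of 35.2 FPKM in HF knockout and 56.8 FPKM in LF floxed livers (log2 fold change -0.79, SE 0.53, edgeR adjusted p = 0.495). The beta globin gene Hbb-bt, at 52.94, 71.22 and 100.68 FPKM in HF knockout livers and 29.32, 23.48 and 26.45 FPKM in LF floxed livers, was among the genes of smallest p (log2 fold change 1.33, SE 0.24, edgeR adjusted p = 0.208); it shares 58.3% of its 50-base windows with Hbb-bs.

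Matrix and collagen cross-linking genes were higher for 24 of 27 members, with a median of 0.93 that was 0.67 without HF knockout replicate 2. Of the 27, 4 lay above the LF floxed libraries without overlap (against 7.93% of all genes). Their summed level was 299, 838 and 515 FPKM in HF knockout livers and 290, 316 and 286 FPKM in LF floxed livers. HF knockout replicate 1 thus lay within the LF floxed range of that sum. Lox, the lysyl oxidase that cross-links collagen, was at 0.15, 0.36 and 0.26 FPKM in HF knockout livers and at 0.00, 0.01 and 0.05 FPKM in LF floxed livers. For Lox the log2 fold change was 3.28 (SE 0.82, edgeR adjusted p = 0.249). Serpinh1, the collagen chaperone HSP47, was at 4.68, 9.44 and 9.04 FPKM in HF knockout livers and at 3.67, 2.82 and 4.21 FPKM in LF floxed livers. For Serpinh1 the log2 fold change was 0.93 (SE 0.23, edgeR adjusted p = 0.249), and it passed without replicate 1 (0.0493). Col1a1, the main chain of type I collagen, was at 0.83, 8.93 and 6.24 FPKM in HF knockout livers and at 0.81, 0.93 and 0.92 FPKM in LF floxed livers, so that replicate 1 stood within the LF floxed range; it was chosen after its values were seen. The 15 markers of stellate cells and myofibroblasts had a median of 0.07, which was -0.27 without HF knockout replicate 3, 0.37 without HF knockout replicate 1 and 0.13 to 0.31 without any other compared library. Cell cycle genes were higher for 15 of 17 members, with a median of 1.31, or 0.73 without replicate 2, in which Mki67, the proliferation antigen Ki-67, reached 3.03 FPKM, against 0.25 and 1.37 FPKM in the other HF knockout livers and 0.07 to 0.19 FPKM in LF floxed livers.

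**Figure D3:**
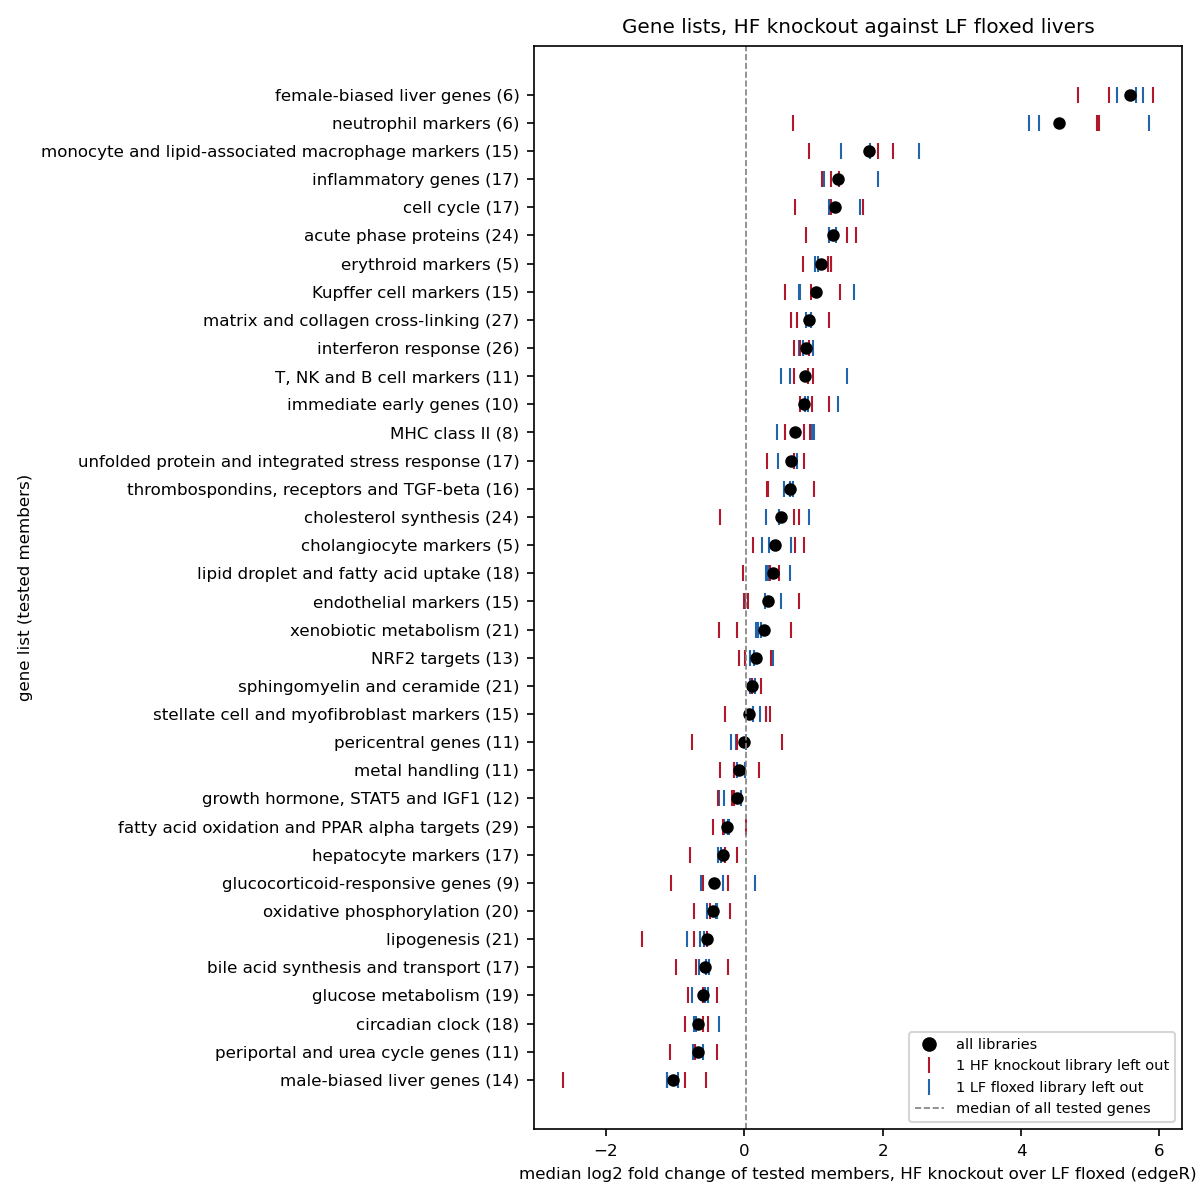
Median log2 fold change of HF knockout over LF floxed livers for the tested members of 36 gene lists, with all libraries (black points) and with each of the 6 compared libraries left out (ticks, red for HF knockout and blue for LF floxed). The dashed line is the median of all tested genes, 0.02. Immune, matrix and cell cycle lists lie to its right, as do cholesterol synthesis, lipid droplet and xenobiotic metabolism; lipogenesis, glucose metabolism, bile acid and oxidative phosphorylation lie to its left. The neutrophil, male-biased and lipogenesis lists move farthest when an HF knockout library is left out.

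Genes of fat synthesis from sugar were lower in HF knockout livers. Of 21 lipogenesis genes 17 were lower and 4 higher, with a median log2 fold change of -0.54; 8 lay below the LF floxed libraries without overlap, where 3.52% of all genes did, and none passed the test. Thrsp, a regulator of lipogenic enzymes, was at 60.68, 32.03 and 87.82 FPKM in HF knockout livers and at 215.96, 348.54 and 127.09 FPKM in LF floxed livers. For Thrsp the log2 fold change was -2.08 (SE 0.53, edgeR adjusted p = 0.249). Mlxipl, the sugar-sensing transcription factor ChREBP, was at 24.14, 28.07 and 33.09 FPKM in HF knockout livers and at 53.93, 47.36 and 46.20 FPKM in LF floxed livers. For Mlxipl the log2 fold change was -0.95 (SE 0.24, edgeR adjusted p = 0.249). Me1, the malic enzyme that supplies NADPH for fatty acid synthesis, was at 11.36, 14.17 and 49.36 FPKM in HF knockout livers and at 111.28, 144.79 and 94.31 FPKM in LF floxed livers. For Me1 the log2 fold change was -2.45 (SE 0.64, edgeR adjusted p = 0.249). In each of these 3 genes every HF knockout library was under every LF floxed one. Scd1, the desaturase that makes monounsaturated fatty acids, was named after its values were seen; it was at 73.01, 1262.14 and 1318.03 FPKM in HF knockout livers and at 3422.37, 4521.23 and 2678.03 FPKM in LF floxed livers. Without HF knockout replicate 2, 20 of the 21 genes were lower and the median was -1.47; without LF floxed replicate 3 it was -0.83.

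Sugar metabolism genes beyond lipogenesis showed a similar split, with 14 of 19 lower, 6 of them without overlap (against 3.52% of all genes). Their median was -0.60 (-0.39 without HF knockout replicate 2), and none was called. Pklr, the liver pyruvate kinase, was at 35.75, 61.67 and 78.23 FPKM in HF knockout livers and at 102.09, 198.26 and 123.85 FPKM in LF floxed livers. For Pklr the log2 fold change was -1.45 (SE 0.40, edgeR adjusted p = 0.249). Khk, ketohexokinase, the first step of fructose use, was at 200.02, 104.45 and 228.16 FPKM in HF knockout livers and at 418.51, 416.65 and 289.33 FPKM in LF floxed livers. For Khk the log2 fold change was -1.20 (SE 0.34, edgeR adjusted p = 0.249). Irs1, an adaptor of the insulin receptor, was at 1.53, 1.29 and 1.89 FPKM in HF knockout livers and at 2.77, 2.43 and 2.85 FPKM in LF floxed livers. For Irs1 the log2 fold change was -0.91 (SE 0.24, edgeR adjusted p = 0.249). The groups were apart for all 3 genes. Pdhb, a subunit of pyruvate dehydrogenase, was among the lower genes of smallest p, at 36.30, 32.19 and 55.31 FPKM in HF knockout livers and 82.84, 67.59 and 64.07 FPKM in LF floxed livers (log2 fold change -0.95, SE 0.21, edgeR adjusted p = 0.249).

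Genes of fatty acid uptake and storage varied widely among the HF knockout livers. Cd36, the fatty acid translocase and TSP1 receptor, was at 4.51, 16.65 and 53.76 FPKM in HF knockout livers and at 1.85, 3.91 and 3.06 FPKM in LF floxed livers. No library overlapped, though replicate 1 was close to the LF floxed level (log2 fold change 2.84, SE 0.67, edgeR adjusted p = 0.249, exact permutation p = 0.1), and without it Cd36 passed (edgeR adjusted p = 0.0443). Cidea, a lipid droplet protein known for its rise in fatty liver, was listed at 0, 7.89 and 2.32 FPKM in HF knockout livers and at 0, 0.11 and 0.11 FPKM in LF floxed livers, whereas HF floxed livers had 68.17, 60.63 and 27.37 FPKM and LF knockout livers 0.61, 47.22 and 52.43 FPKM. Cidec, another lipid droplet protein, was at 0.22, 24.89 and 19.69 FPKM in HF knockout livers and at 0.53, 1.39 and 0.89 FPKM in LF floxed livers. For both, HF knockout replicate 1 did not exceed the LF floxed range; Cidea and Cidec were chosen after their values were seen. Fabp1, the abundant fatty acid-binding protein of hepatocytes, lay the other way, at 4520.54, 2103.04 and 6169.32 FPKM in HF knockout livers and 7755.80, 11233.88 and 11170.29 FPKM in LF floxed livers (log2 fold change -1.37, SE 0.41, edgeR adjusted p = 0.249). The list of 18 lipid droplet and uptake genes held 12 higher and 6 lower, with a median of 0.41 that was -0.01 without HF knockout replicate 3 and 0.66 without LF floxed replicate 2.

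**Figure D4:**
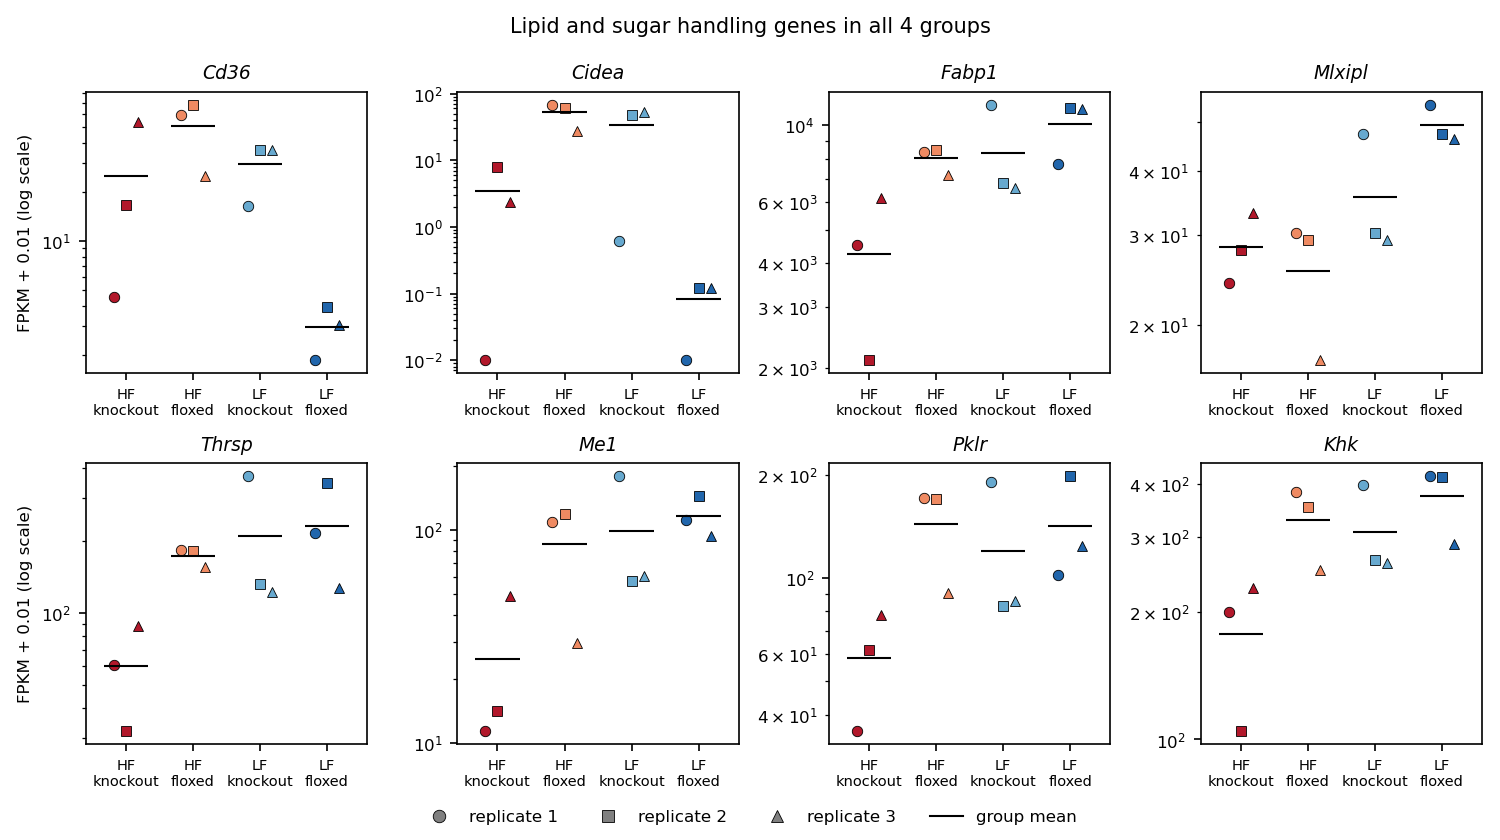
FPKM + 0.01 on a log scale of 8 genes of lipid and sugar metabolism in the 3 libraries of each group, with a symbol for each replicate and a line at the group mean; values listed as 0 are drawn at 0.01. HF knockout livers are below LF floxed livers for Fabp1, Mlxipl, Thrsp, Me1, Pklr and Khk and above them for Cd36, and their Cidea levels run between 0 and 7.89 FPKM while HF floxed livers are at 27.37 to 68.17 FPKM.

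The direction of cholesterol synthesis genes depended on a single library. Of 24 genes 17 were higher and 7 lower, with a median of 0.53, but without HF knockout replicate 2 there were 7 higher and 17 lower with a median of -0.35. That median was 0.31 without LF floxed replicate 1 and 0.93 without LF floxed replicate 2. Hmgcs1, an early enzyme of the pathway, was at 45.50, 275.22 and 94.30 FPKM in HF knockout livers and at 38.30, 76.26 and 45.52 FPKM in LF floxed livers, which overlap. Fatty acid oxidation and PPAR alpha targets were lower for 23 of 29 members with a median of -0.25, and that median was 0.03 without replicate 2, with 13 of 29 lower, and -0.45 without HF knockout replicate 3. Bile acid synthesis and transport genes were lower for all 17 members, with a median of -0.57; without replicate 2, 13 of 17 were lower and the median was -0.24, and without HF knockout replicate 1 it was -0.99. In that list Abcg5, a canalicular sterol exporter, was at 21.15, 20.50 and 21.95 FPKM in HF knockout livers and at 34.06, 35.85 and 35.78 FPKM in LF floxed livers, with little spread in either group. For Abcg5 the log2 fold change was -0.86 (SE 0.24, edgeR adjusted p = 0.249). Abcb11, the bile salt export pump, was at 68.28, 28.46 and 71.93 FPKM in HF knockout livers and at 102.11, 84.76 and 98.11 FPKM in LF floxed livers (log2 fold change -0.87, SE 0.34, edgeR adjusted p = 0.307). All 20 oxidative phosphorylation genes were lower, with a median of -0.45, and 3 of the 20 lay below without overlap (against 3.52% of all genes). They stayed lower without replicate 2, with a median of -0.20 (-0.73 without HF knockout replicate 1). Periportal and urea cycle genes were lower for 10 of 11, with a median of -0.67, or -0.39 without replicate 2 and -1.07 without HF knockout replicate 1.

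Genes with higher expression in male than in female mouse liver were mostly lower in HF knockout livers. Of 14 male-biased genes 13 were lower, 6 of them without overlap (against 3.52% of all genes), with a median of -1.03. There were 9 lower and 5 higher without HF knockout replicate 2, with a median of -0.55, and without replicate 1 the median was -2.61. Mup20, a male urinary pheromone protein, was at 3236.11, 1716.98 and 2616.76 FPKM in HF knockout livers and at 16267.48, 5977.59 and 16183.67 FPKM in LF floxed livers. For Mup20 the log2 fold change was -2.45 (SE 0.47, edgeR adjusted p = 0.249). Cyp4a12b, a male-biased fatty acid hydroxylase, was at 2.24, 0.13 and 0.50 FPKM in HF knockout livers and at 22.51, 32.62 and 26.58 FPKM in LF floxed livers (log2 fold change -4.85, SE 0.95, edgeR adjusted p = 0.249), and it passed in limma on log2(FPKM + 1). Without HF knockout replicate 1, Mup20 (edgeR adjusted p = 0.0466), Cyp4a12b (0.0438) and, among the female-biased genes, Hao2 (0.0466) passed. Cyp4a12b shares 49.4% of its 50-base windows with Cyp4a12a, whose levels overlapped between the groups. Cyp4a12a was at 166.47, 0.19 and 48.00 FPKM in HF knockout livers and at 65.42, 221.63 and 67.25 FPKM in LF floxed livers (log2 fold change -0.69, SE 1.24, edgeR adjusted p = 0.817). Of 12 female-biased genes 6 could be tested, 5 were higher and Cyp2b9 passed. Hao2, a peroxisomal hydroxy acid oxidase of that list, was at 0.46, 0.72 and 4.90 FPKM in HF knockout livers and at 0.09, 0.18 and 0.06 FPKM in LF floxed livers. For Hao2 the log2 fold change was 3.87 (SE 0.83, edgeR adjusted p = 0.249). Cyp2a4, a female-biased steroid hydroxylase, was at 0.15, 1119.66 and 80.22 FPKM in HF knockout livers and at 0.12, 0.04 and 1.09 FPKM in LF floxed livers, so replicate 1 lay within the LF floxed range; it was chosen after its values were seen. The Y-linked Ddx3y was expressed in all 6 libraries, at 4.70, 9.18 and 9.59 FPKM in HF knockout livers and 6.31, 6.70 and 6.46 FPKM in LF floxed livers.

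Among the lower genes as a whole, Sgk1, a kinase induced by glucocorticoids and insulin, had the smallest p. It was at 2.23, 2.65 and 4.59 FPKM in HF knockout livers and at 8.36, 6.47 and 6.92 FPKM in LF floxed livers (log2 fold change -1.37, SE 0.21, edgeR adjusted p = 0.118), and it passed without HF knockout replicate 1 (edgeR adjusted p = 0.0488) and without replicate 3 (0.0263), but in no fit with another compared library left out. LF knockout livers, at 2.94, 2.86 and 3.17 FPKM of Sgk1, were 1.44 under LF floxed livers on the log2 scale by the same fit (log2 fold change -1.44, SE 0.21, edgeR adjusted p = 0.0592). Slc25a25, a mitochondrial ATP-magnesium carrier, was at 19.50, 17.37 and 17.61 FPKM in HF knockout livers and at 30.73, 59.83 and 39.02 FPKM in LF floxed livers. For Slc25a25 the log2 fold change was -1.36 (SE 0.24, edgeR adjusted p = 0.208). The HF knockout livers were nearly alike for Slc25a25 and the LF floxed livers were not, and without HF knockout replicate 1 it passed (edgeR adjusted p = 0.0466). The remaining lower genes of smallest p were Srgap3, Paxx, Rab9, Icam4, Iffo2 and Jph1, with log2 fold changes of -3.14, -1.71, -0.90, -3.26, -0.68 and -3.67 in that order; Srgap3 and Jph1 were under 0.5 FPKM in all 6 libraries. The remaining higher ones were Tmem176a, Sema4d, Prg4 and Antxr2, with log2 fold changes of 1.67, 2.11, 1.52 and 1.34 in that order, of which the membrane protein Tmem176a was at 420.13, 368.46 and 337.79 FPKM in HF knockout livers and at 79.21, 119.22 and 127.06 FPKM in LF floxed livers (edgeR adjusted p = 0.137).

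Stress-responsive genes were higher for the most part. Of 17 unfolded protein and integrated stress response genes 14 were higher, with a median of 0.67, or 0.33 without HF knockout replicate 2, and none passed. Gdf15, a stress-induced hormone, was at 8.37, 13.37 and 21.71 FPKM in HF knockout livers and at 5.50, 2.93 and 5.48 FPKM in LF floxed livers. For Gdf15 the log2 fold change was 1.44 (SE 0.39, edgeR adjusted p = 0.249). Psat1, an enzyme of serine synthesis and target of the stress factor ATF4, was at 0.14, 17.32 and 0.67 FPKM in HF knockout livers and at 0.23, 0.29 and 0.32 FPKM in LF floxed livers. It was high in replicate 2 alone. Of 10 tested immediate early genes 9 were higher, with a median of 0.87 (1.36 without LF floxed replicate 3), and 5 lay above without overlap (against 7.93% of all genes). Fos, a subunit of the transcription factor AP-1, was at 1.56, 2.53 and 3.43 FPKM in HF knockout livers and at 0.24, 0.50 and 0.68 FPKM in LF floxed livers. For Fos the log2 fold change was 2.21 (SE 0.48, edgeR adjusted p = 0.249). The other lists had medians closer to that of all genes: 0.44 for cholangiocyte markers, 0.34 for endothelial markers, 0.28 for xenobiotic metabolism, 0.17 for NRF2 targets, 0.00 for pericentral genes, -0.10 for growth hormone, STAT5 and IGF1 genes, -0.31 for hepatocyte markers and -0.44 for glucocorticoid-responsive genes. Most of these medians moved with single libraries. They were, without HF knockout replicate 1, 0.74 for cholangiocyte, 0.79 for endothelial, -0.37 for xenobiotic, 0.39 for NRF2, -0.75 for pericentral, -0.38 for growth hormone, -0.78 for hepatocyte and -1.05 for glucocorticoid-responsive genes. Leaving out HF knockout replicate 2 gave 0.13 for cholangiocyte, 0.00 for endothelial, 0.68 for xenobiotic, -0.07 for NRF2, 0.54 for pericentral (10 of 11 higher), -0.17 for growth hormone, -0.11 for hepatocyte and -0.60 for glucocorticoid-responsive genes. Without HF knockout replicate 3 they were 0.87 for cholangiocyte, 0.05 for endothelial, -0.10 for xenobiotic, 0.01 for NRF2, -0.10 for pericentral and -0.24 for glucocorticoid-responsive genes. The glucocorticoid-responsive median was 0.15 without LF floxed replicate 2. Over the fits without 1 LF floxed library, medians ran from 0.26 to 0.67 for cholangiocyte, 0.01 to 0.53 for endothelial and 0.17 to 0.25 for xenobiotic genes. They ran from 0.09 to 0.41 for NRF2, -0.19 to 0.03 for pericentral and -0.36 to -0.05 for growth hormone genes. In these lists, Cyp2b9, counted under xenobiotic metabolism too, was the only member called.

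The circadian clock was not aligned among the libraries. Dbp, a clock output gene with a strong daily rhythm in liver, was at 34.14, 3.97 and 2.64 FPKM in HF knockout livers and at 1.98, 90.82 and 57.85 FPKM in LF floxed livers. Within each group 1 library lay far from the other 2, and the groups overlapped (log2 fold change -1.82, SE 1.43, edgeR adjusted p = 0.558). Arntl, the clock activator whose rhythm runs opposite to that of Dbp, was at 1.26, 10.43 and 6.93 FPKM in HF knockout livers and at 5.61, 0.76 and 1.36 FPKM in LF floxed livers. Of 18 clock genes 15 were lower and 3 higher, with a median of -0.66 (-0.36 without LF floxed replicate 2), and none passed the test. With the log2 CPM of Dbp as a covariate, Lcn2 (edgeR adjusted p = 0.0239) and Cyp2b9 (0.0221) still passed, and Cyb561 and Prtn3 were called as well.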

How the data were processed

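Total RNA of flash-frozen whole livers was sequenced in 12 libraries of 4 groups, of which the 3 HF knockout and 3 LF floxed libraries are compared. Expected counts (estimated counts per gene, not scaled) were deposited by the authors in 1 file per library, with the column layout of RSEM per the file headers. The FPKM values in the same files were computed by the authors from effective gene length and library size, per the file headers. The submitters' processing notes give mm9 as the build. Aligner and annotation: not given in the sources used here. No value under 0.01 FPKM is listed, and a gene missing from a file (3825 were missing from 1 or more) was set to 0 in it. Of the estimated counts of the compared libraries, 6.65 to 17.33% fell on loci without a gene name, which were left out. Promoter sequences came from RefSeq (GRCm38.p6), and no other coordinates are printed since the builds differ.

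Estimated counts of named genes were rounded and tested with edgeR 4.0.16 (R 4.3.3): TMM factors, filterByExpr, 1 mean per group over all 12 libraries, quasi-likelihood F tests, and Benjamini-Hochberg adjustment over 12587 genes with calls at 5%. Over all 12 libraries the biological coefficient of variation was 34.8%. Exact permutation tests of 4 genes used log2(FPKM + 1). Gene lists are described by counts and medians, without a test. The members and the 36 lists were chosen with earlier results of these data known. Genes named were Thbs1, Smpdl3b, Lyz2 and Cd36; in each direction the 12 protein-coding genes of smallest p whose groups do not overlap; up to 3 members of smallest p in each list with a median of at least 0.5 in size or a called member; the clock genes; and the 10 most abundant genes. Other named genes were chosen after their values were seen. Some genes picked by the rule are not reported here. Alternatives were DESeq2 1.42.0, its size factors, other filters, limma 3.58.1 on log2(FPKM + 1) and log2(FPKM + 0.1), limma voom with sample weights, fewer libraries, a replicate block, a 1.5-fold test and Dbp as a covariate.

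Tested on counts simulated for this comparison (12587 genes), the fit found 24.2% of 2-fold changes, 81.7% of 4-fold changes and 95.2% of 8-fold changes, and 7 calls were false. How far these shares carry over to the HF knockout libraries, with their biological coefficient of variation of 52.8%, was not tested. In the compared libraries Thbs1 was 12.1-fold higher and Hamp 24.2-fold lower, and neither passed (edgeR adjusted p = 0.249 each). A gene that did not pass may therefore still differ by more than 8-fold. Same-numbered libraries of the compared groups did not deviate together (correlations 0.005, 0.01 and 0.074), so the numbers were not taken as pairs.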

Additional observations from a re-analysis of the deposited data

How the results depend on the processing

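Over 21 alternatives the 111 genes named by rule gave 2292 log2 fold changes, of which 2162 kept their direction and side of the threshold, 80 newly passed, 14 (of Lcn2 and Cyp2b9) no longer passed and 36 changed sign. The fit as reported called 2 genes, both higher. DESeq2 called 313 (243 higher, 70 lower), limma on log2(FPKM + 1) called 1 lower gene (Cyp4a12b) beside the same 2, and the Dbp covariate gave 4, all higher. Limma on log2(FPKM + 1) without a filter gave 1 (Lcn2), the 6 compared libraries alone 1 (Cyp2b9), voom with sample weights 1 (Lcn2), and averaged near-identical pairs 0, none of them lower; the causes were not tested. With the replicate block 0 genes passed (smallest edgeR adjusted p 0.0765), and with the replicate block in the 6 compared libraries 3 passed (Cyp2b9, Ltf and Ngp). Leaving out 1 library gave 0 to 108 calls, 0 to 90 higher and 0 to 18 lower (18 without HF knockout replicate 1, 2 without HF knockout replicate 3). Signs reversed with the Dbp covariate for Dbp (0.01), Per3 (0.42), Per1 (0.04), Nr1d1 (0.34), Clock (-0.14) and Alb (0.03); with voom for Apoa1 (-0.23), Cry1 (0.48), Apoe (0.00) and Nfil3 (0.49); and with limma for Cry1 (0.02 at a pseudocount of 1 with and without the filter, 0.04 at 0.1) and Nfil3 (0.21 with and without the filter, 0.23). The 6-library replicate block gave 0.15 for Cry1 and 0.12 for Nfil3, and Nfil3 was 0.02 in DESeq2, with its size factors, in the 6 libraries and in the 12-library block, and 0.01 with unnamed loci kept. With 1 library left out, the values spanned -1.14 to 0.16 for Per1, -0.11 to 0.62 for Apoa1, -0.51 to 4.30 for Npas2, -0.82 to 0.98 for Cry1, -0.10 to 0.43 for Clock, -1.40 to 0.11 for Mup22, -0.60 to 0.24 for Alb and -0.30 to 0.53 for Nfil3. Of 756 list medians 719 lay closer to the reported median than the standard deviation among libraries, and 37 in 14 lists did not. That standard deviation was of the list's mean log2 CPM within the compared groups, so libraries that stand apart widen it. Cholesterol synthesis turned to -0.33 with voom, and the glucocorticoid-responsive list (-0.44 as reported) to 0.15 without LF floxed replicate 2 and 0.04 with the Dbp covariate. With 3 libraries a group, the fit called 24.2% of 2-fold changes in simulated counts. In the compared libraries, Thbs1 (12.1-fold higher) and Hamp (24.2-fold lower) did not pass, so changes much larger than 2-fold can be missed too.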

Other observations

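For some further genes 1 HF knockout library stood apart from the other 2. Prtn3, Igfbp1 and Plin4 were chosen after their values were seen. Prtn3, the neutrophil and myeloid precursor serine protease proteinase 3, was at 37.99, 2.94 and 5.88 FPKM in HF knockout livers and at 0.00, 0.66 and 0.40 FPKM in LF floxed livers, without overlap; it was highest in replicate 1, in which the summed neutrophil markers were at 14.1 FPKM, and not in replicate 3, in which they were at 547 FPKM. Igfbp1, an insulin-repressed plasma protein that binds insulin-like growth factors, was at 7.69, 790.05 and 22.63 FPKM in HF knockout livers and at 3.83, 18.14 and 24.13 FPKM in LF floxed livers, so that only replicate 2 exceeded the LF floxed range. Plin4, a lipid droplet coat protein, was at 0.32, 0.10 and 8.29 FPKM in HF knockout livers and at 0.31, 0.18 and 0.31 FPKM in LF floxed livers, and was high in replicate 3 alone. Mup22, a major urinary protein and one of the most abundant genes, was at 14286.34, 24.08 and 10121.99 FPKM in HF knockout livers and at 17242.38, 7861.59 and 7241.07 FPKM in LF floxed livers, with replicate 2 far below every other library.

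Lrg1, a secreted leucine-rich glycoprotein of the acute phase, was at 2109.27, 999.76 and 674.45 FPKM in HF knockout livers and at 288.64, 301.12 and 304.33 FPKM in LF floxed livers, without overlap. For Lrg1 the log2 fold change was 2.04 (SE 0.46, edgeR adjusted p = 0.249). In HF knockout replicate 2, Lcn2, Lrg1 and Hp were all above the LF floxed range while Saa1 and Orm2 were not: Orm2, the plasma protein orosomucoid 2, was at 754.53, 8.53 and 91.24 FPKM in HF knockout livers and at 7.27, 17.36 and 19.06 FPKM in LF floxed livers. What sets replicate 2 apart was not tested.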
